A study of Mus musculus with 12 samples.

Results

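Transcript levels of 8 genes were examined, Pim1, Pim2, Pim3, Socs1, Socs2, Socs3, Cish and Bcl6, out of 56128 genes with a symbol in the count table. They were grouped as targets of the STAT transcription factors, and Pim1 was picked on its level in KI MemB and control MemB, so that its difference between those groups is given as a description with no test. All 8 passed the filter on low counts, as did 14933 genes in all.

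Cytokine receptors of the JAK–STAT class have no enzyme of their own. Janus kinases bound to the receptor phosphorylate STAT proteins, which pair, enter the nucleus and bind DNA at short palindromes. PIM kinases are serine/threonine kinases that need no activating phosphorylation, so that their activity follows the amount of their transcripts and proteins, and they favour survival and growth of lymphocytes. The SOCS proteins and CISH are made in response to the same signal and close a feedback loop by blocking Janus kinases or their docking sites on receptors. BCL6 is a transcriptional repressor that germinal centre B cells require, and it binds DNA elements that overlap those of STAT proteins.

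Bulk RNAseq was performed on B2 (IgD+IgM+) and MemB (IgD-IgM-) sorted from the mouse peritoneal cavity (PerC), with 3 libraries in each of 4 groups. KI mice carried Cd21-Cre and the R26 LSL-Gpr34Q340X-IRES-GFP allele, and control mice were their littermates, all adult. Cre driven by Cd21 switches on a truncated, gain-of-function GPR34, a G protein-coupled receptor for lysophosphatidylserine, together with GFP from the mature B cell stage onwards. No mouse received a further treatment, and the alleles that the littermates carried are not given in the labels.

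Libraries held 29895031 to 39732039 counts, and ribosomal RNA accounted for 29.3% to 38.3% of them. Values below are CPM, that is, counts scaled to a common library size after TMM normalization, and each mean is over 3 libraries with its SD. Gpr34 lay between 101 and 113 CPM in KI B2 and between 133 and 170 in KI MemB, against 3.44 to 6.90 in control B2 and 18.9 to 31.0 in control MemB. Ighd was lower in MemB than in B2 by a log2 fold change of -3.35 (SE 0.14, adjusted p = 5.98e-18). Ighm was not low in control MemB, which were sorted as IgM-, at 2026.8 to 2706.3 CPM against 4100.1 to 4365.6 in control B2, and was 299 to 570 CPM in KI MemB. Between KI and control MemB, Ighm differed by -2.46 (SE 0.17, adjusted p = 4.20e-11) and Ighd by -1.35 (SE 0.18, adjusted p = 8.87e-05). The MemB groups thus differed in both genes of the sort, and the part of this in every difference between KI and control MemB given below was not tested. The sum of 5 B cell genes was between 2679.2 and 3195.9 CPM in every library. Xist was between 2436.1 and 3253.1 CPM in replicate 3 of every group and between 29.5 and 67.1 in the other libraries. The sum of the Y-linked genes Ddx3y, Eif2s3y, Kdm5d and Uty was 5.07 to 8.69 CPM in replicate 3 and 191 to 290 in the others. Replicate 3 thus had a female pattern and stood apart in each group alike.

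The promoters of these genes differ in whether they hold the palindrome that STAT proteins prefer, TTCNNNGAA, which reads the same on both strands. RefSeq promoters (GRCm38.p6, from 250 bases before to 50 bases after a gene's start) were found for 7 of the 8 genes, 9 promoters in all, and were placed on GRCm39 by exact match. The palindrome was present in 4 of the 9, those of Socs3, Cish and both of Bcl6, and in 2726 of 32851 promoters of the same length (8.30%). The wider form with 4 bases in the middle, which STAT6 can use, was present in 2284 of the 32851 (6.95%) and in 0 of the 7 genes. The matches are shown 5′ to 3′ on the strand of the gene with the palindrome in capitals, because they are the element through which the pathway is known to act on this class of gene. Positions count from RefSeq's starts. GENCODE M39, whose gene coordinates are given further on, starts Socs3 and Cish farther upstream, so that their matches, and those of the second Bcl6 promoter, lie within the gene as it draws it.
Cish, both matches, beginning at bases 1 and 12 from the start, chr9:107173858-107173866 and chr9:107173869-107173877: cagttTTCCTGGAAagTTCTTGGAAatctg
Socs3, 154 bases before the start, chr11:117860338-117860346: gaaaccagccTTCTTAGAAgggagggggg
Bcl6, first promoter, 118 bases before the start, chr16:23807712-23807720: agcaaattagTTCTCAGAAttccagaggc
Bcl6, second promoter, 168 bases before the start, chr16:23800193-23800201: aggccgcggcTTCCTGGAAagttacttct
Bcl6, second promoter, 122 bases before the start, chr16:23800147-23800155: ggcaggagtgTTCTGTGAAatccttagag
Bcl6, second promoter, 88 bases before the start, chr16:23800113-23800121: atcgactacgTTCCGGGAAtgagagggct

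The windows of Pim1, Pim2, Pim3 and Socs1 held neither form. That says only that these letters were not found there.

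Pim1 (chr17:29709581-29715086, plus strand, GRCm39) encodes the founding PIM kinase and was the most abundant of the 8 genes per length of transcript, with means of 122 CPM per kb in control MemB and 38.3 in KI MemB beside 78.4 and 65.4 in control and KI B2. Its level was 490, 196 and 355 CPM in the control MemB libraries and 123, 106 and 99.3 CPM in the KI MemB libraries. All KI MemB libraries lay below all control MemB libraries, and their mean of 109 CPM compared with 347 ± 148 CPM in control MemB. The log2 fold change was -1.67 (SE 0.29), a 3.17-fold lower level in KI, on the comparison by which the gene was chosen. Without control MemB replicate 1, the highest library, it was -1.33, and without control MemB replicate 2, the lowest of that group, it was -1.95.

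In B2, Pim1 was at 185, 197 and 287 CPM in control and at 182, 242 and 134 CPM in KI. These ranges overlapped, and the log2 fold change of -0.26 (SE 0.28) did not pass the test (edgeR quasi-likelihood test, adjusted p = 1.00). The effect in MemB was lower than that in B2 by 1.40 on the log2 scale as a description. Over both genotypes, MemB and B2 differed by -0.06 (SE 0.20, adjusted p = 0.946), an average of control MemB above control B2 and of KI MemB below KI B2. Ordered by mean, Pim1 was highest in control MemB, then control B2 (223 ± 55.8 CPM), KI B2 (186 ± 53.7 CPM) and KI MemB. Neighbouring groups overlapped down to KI B2, whereas KI B2 and KI MemB did not.

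Pim2 (chrX:7744501-7749689, plus strand), a PIM kinase prominent in lymphoid cells, was at 27.0, 25.4 and 28.6 CPM in control MemB and at 8.92, 9.72 and 13.1 CPM in KI MemB. The groups did not overlap, and the spread within each was small beside the gap between them. A log2 fold change of -1.35 (SE 0.66) did not pass the test over all genes (edgeR adjusted p = 0.450). In B2, the control libraries had 39.2, 45.4 and 13.6 CPM and the KI libraries 12.6, 14.7 and 9.06 CPM. Here control replicate 3 lay within the KI range, and the log2 fold change of -1.43 (SE 0.66) did not pass either (adjusted p = 0.849). The effects in the cell types differed by 0.08 (SE 0.91, adjusted p = 1.00), an error too wide to show them alike.

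Pim3 (chr15:88746177-88749929, plus strand) was the scarcest PIM kinase per length in control B2, at 1.91 CPM per kb. It was at 8.48, 5.67 and 0.955 CPM in control B2 and at 14.0, 6.82 and 26.6 CPM in KI B2, with a log2 fold change of 1.65 (SE 1.05, adjusted p = 0.907). That value ran from 1.05 to 2.28 with a library left out and fell to 0.57 under another alternative. In MemB, 9.73, 4.73 and 4.31 CPM in control stood beside 3.95, 4.84 and 6.71 CPM in KI, with a log2 fold change of -0.28. The groups overlapped in both cell types. The 3 PIM kinases are similar in sequence, and RSEM divides reads that fit more than one of them.

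**Figure D1:**
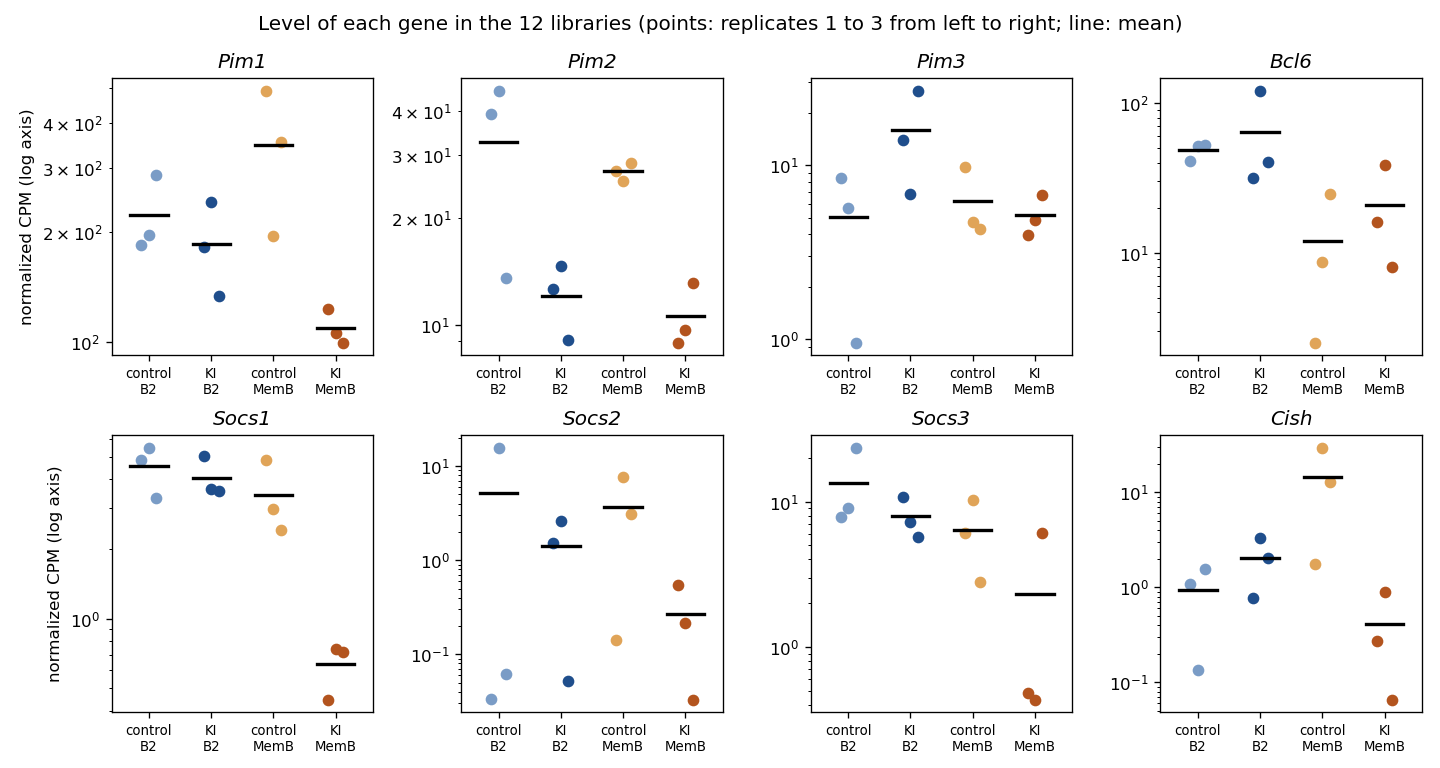
Level of the 8 genes in each of the 12 libraries, in normalized CPM on a log axis, with points for replicates 1 to 3 of each group and a line at the mean. Pim1, Pim2, Socs1 and Cish are lower in every KI MemB library than in every control MemB library, and Bcl6 is lower on average in MemB than in B2 of both genotypes.

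Among the feedback inhibitors, Cish (chr9:107173225-107179983, plus strand), whose product binds phosphorylated receptors and is induced mainly through STAT5, had the largest difference. It was at 1.75, 29.3 and 12.7 CPM in control MemB (61, 991 and 422 counts) and at 0.275, 0.894 and 0.0655 CPM in KI MemB (8, 29 and 2 counts). The groups did not overlap, although control MemB spread widely. The log2 fold change of -5.13 (SE 1.63, 35.1-fold) did not pass the test over all genes (edgeR adjusted p = 0.267), whereas DESeq2 called it (adjusted p = 0.00202). The edgeR adjusted p was 0.444 without control MemB replicate 2, the highest library, with a log2 fold change of -4.12.

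In B2, Cish was low in both genotypes, at 1.08, 0.135 and 1.57 CPM in control and 0.772, 3.30 and 2.03 CPM in KI, and the ranges overlapped. Its fold change there was 1.13 on the log2 scale (SE 1.39), and ran from 0.59 to 1.74 with a library left out. The effect in MemB minus that in B2 was -6.26 (SE 2.10, edgeR adjusted p = 0.377, DESeq2 adjusted p = 0.0223). Per length, Cish was the most abundant SOCS gene in control MemB, at 4.00 CPM per kb, and among the least abundant in the other groups, at 0.255 in control B2, 0.559 in KI B2 and 0.113 in KI MemB.

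Socs1 (chr16:10600104-10603875, minus strand), which inhibits Janus kinases directly, was at 4.84, 2.98 and 2.41 CPM in control MemB and at 0.446, 0.740 and 0.721 CPM in KI MemB. The KI MemB libraries held 13, 24 and 22 counts, below every other library of the series, where Socs1 was between 2.41 and 5.47 CPM. The log2 fold change in MemB was -2.42 (SE 1.44) and did not pass the test (adjusted p = 0.562). In B2 the groups overlapped, at 4.87, 5.47 and 3.33 CPM in control and 5.05, 3.62 and 3.55 CPM in KI. The difference there was -0.16.

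Socs3 (chr11:117856905-117860898, minus strand), the feedback inhibitor of gp130 receptors, was at 6.07, 10.3 and 2.78 CPM in control MemB and at 0.480, 0.432 and 6.06 CPM in KI MemB. The first 2 KI libraries lay below the control range and replicate 3 within it. The log2 fold change was -1.46 (SE 1.14, adjusted p = 0.690). It ran from -3.80 without KI MemB replicate 3 to -0.92 without control MemB replicate 2. In B2 it was at 7.87, 8.98 and 23.4 CPM in control and at 10.8, 7.19 and 5.74 CPM in KI, which overlapped, with a log2 fold change of -0.76.

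Socs2 (chr10:95219523-95253929, minus strand), a regulator of growth hormone signalling that STAT5 induces, was the most uneven between libraries of a group. Control B2 had 0.0338, 15.6 and 0.0616 CPM, that is 1, 462 and 2 counts, and KI B2 had 1.51, 2.64 and 0.0515 CPM. Control MemB had 0.143, 7.74 and 3.11 CPM and KI MemB 0.549, 0.216 and 0.0328 CPM. All groups overlapped. The log2 fold change was -3.77 (SE 2.03, adjusted p = 0.502) in MemB and -1.90 (SE 1.87) in B2, where it was 4.76 without control B2 replicate 2, the library with 462 counts.

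Bcl6 (chr16:23783802-23807602, minus strand) was the gene that differed between cell types. It was at 41.2, 51.7 and 52.4 CPM in control B2 and at 31.7, 121 and 40.7 CPM in KI B2. It was at 2.49, 8.71 and 24.9 CPM in control MemB and at 16.0, 38.6 and 8.06 CPM in KI MemB. All control MemB libraries lay below all control B2 libraries, whereas KI MemB replicate 2 lay within the range of KI B2. Over both genotypes Bcl6 was 3.53-fold lower in MemB, with a log2 fold change of -1.82 (SE 0.47, edgeR adjusted p = 0.0448).

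The call for Bcl6 was near the threshold. It was lost when any of 8 of the 12 libraries was left out, with a log2 fold change between -2.37 and -1.40 over all 12. The libraries were the 3 of control B2, KI B2 replicate 2, control MemB replicates 1 and 2, and KI MemB replicates 1 and 3. The lowest difference, -1.40 (adjusted p = 0.220), was that without KI B2 replicate 2, which had 121 CPM. DESeq2 kept the call (adjusted p = 0.00904). Between genotypes Bcl6 overlapped in both cell types, with log2 fold changes of 0.41 (SE 0.65) in B2 and 0.79 (SE 0.65, adjusted p = 0.710) in MemB. Annotated long noncoding RNA genes overlap all of these genes except Pim2 and Pim3, mostly on the opposite strand, and the strand setting of the counting is not given in the sources used here, so reads of both cannot be told apart.

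Of the 7 genes other than Pim1, 0 passed edgeR's test between KI and control in MemB, where 2 of 7, Pim2 and Cish, had an unadjusted p under 0.05 and DESeq2 called 1, Cish. Among all genes tested, edgeR called 0.281% and DESeq2 3.48% in that comparison. In B2, 0 of 8 passed by edgeR or DESeq2, 1 of 8 (Pim2) had an unadjusted p under 0.05, and 0.00670% of all genes were called by edgeR and 0.286% by DESeq2. For the difference between the effects, 0 of 7 passed edgeR's test, 1 of 7 (Cish) had an unadjusted p under 0.05, DESeq2 called 1, and 0.0670% of all genes were called by edgeR and 1.46% by DESeq2. Of all genes tested, 11.1% had an unadjusted p under 0.05 in MemB, 5.73% in B2 and 8.50% for the difference between the effects. Between MemB and B2, 1 of 8 passed by either tool, against 1.03% of all genes by edgeR and 4.10% by DESeq2.

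Of the 7 genes other than Pim1, 3 were lower in KI MemB with no overlap between libraries (Pim2, Socs1 and Cish), against 6.11% of all genes tested. Pim1 was left out of this count because it was chosen on that comparison. The other members were also chosen with earlier results of these data known, so the counts in this paragraph are not independent of that choice. In B2, 0 of 8 were higher or lower without overlap, against 10.2% of all genes. In MemB, 6 of the 7 genes other than Pim1 had a log2 fold change below 0, with a median of -1.46, whereas 51.5% of all genes were below 0 with a median of -0.03. In B2, 4 of the 7 were below 0, with a median of -0.16. The KI MemB and control MemB libraries behind these counts are the same, so they are not separate observations.

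**Figure D2:**
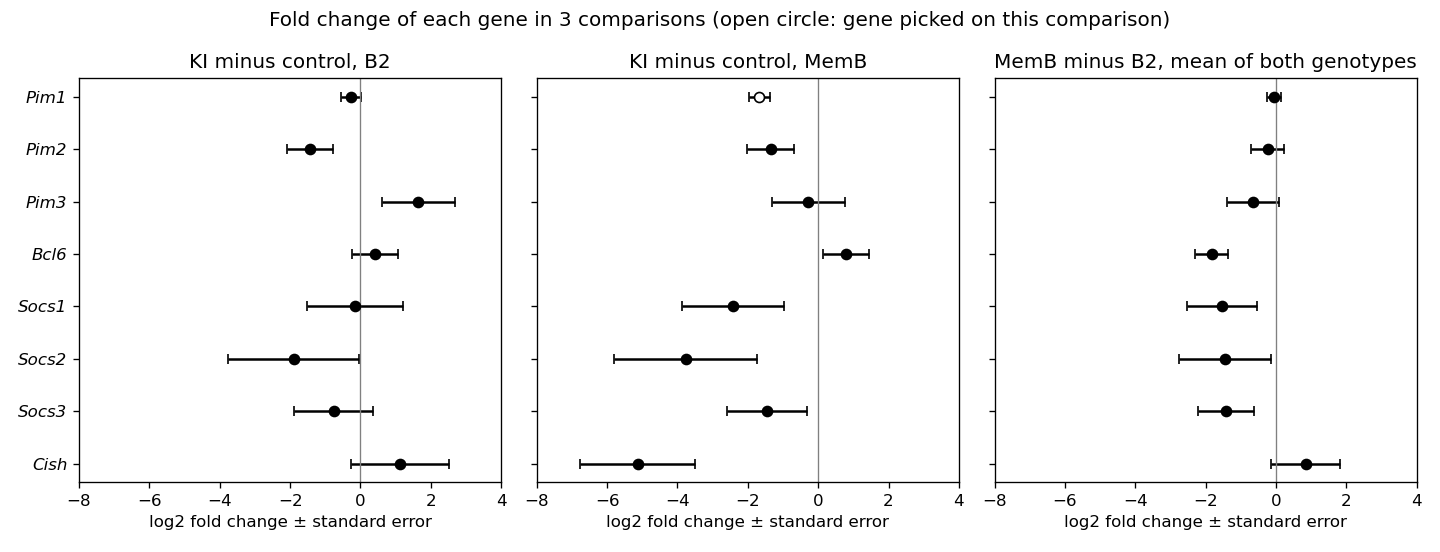
Log2 fold change with its standard error for the 8 genes, for KI minus control in B2, KI minus control in MemB, and MemB minus B2 over both genotypes, with an open circle for Pim1 in the comparison by which it was chosen. In MemB all genes except Bcl6 lie below 0, with standard errors from 0.29 for Pim1 to 2.03 for Socs2.

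The genes differed in how firmly they were measured. The biological coefficient of variation, the spread between replicate libraries beyond counting error, was 30.6% for Pim1, 56.4% for Pim2, 56.1% for Bcl6 and 84.0% for Pim3. It was 89.8% for Socs3, 105% for Socs1, 106% for Cish and 135% for Socs2, beside a median of 78.8% over all genes tested. The highest library exceeded the lowest 4.94-fold for Pim1 and 5.09-fold for Pim2, but 447-fold for Cish and 476-fold for Socs2. Per length, Bcl6 followed Pim1 in KI B2, at 18.3 CPM per kb, and the highest group mean of any SOCS gene was 5.03 CPM per kb, that of Socs3 in control B2.

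Across the 12 libraries, the members most alike by Pearson's r on log2 CPM were Socs1 and Socs3 (r = 0.770). Pim1 was nearest to Socs1 (r = 0.633) and Pim2 (r = 0.540), and its r was negative with Bcl6 (-0.179) and Pim3 (-0.189). Among all genes tested, the 5 closest to Pim1 were Purg (r = 0.864), Senp7 (r = 0.849), Iws1 (r = 0.839), Scn4a (r = 0.835) and Rigi (r = 0.829). Their means were also lowest in KI MemB, for example 177 CPM for Senp7 in control MemB and 103 in KI MemB, and 24.0 and 0.481 CPM for Scn4a. The closest gene to each of the others was Gprin3 for Pim2 (r = 0.901), Rps6.ps4 for Pim3 (r = 0.853), Cacna1i for Socs1 (r = 0.939), Sorbs3 for Socs2 (r = 0.913), Slc28a2 for Socs3 (r = 0.943), Use1 for Cish (r = 0.914) and Baiap2 for Bcl6 (r = 0.883). These are descriptions over 12 libraries that fall into the same 4 groups, and the closest of many genes is high by selection.

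Genes of T and NK cells had a lower summed level in the same KI MemB libraries. Their summed level over 12 listed genes was 146, 238 and 112 CPM in control MemB and 9.27, 23.7 and 53.1 CPM in KI MemB, against 36.9 to 54.9 in control B2 and 21.7 to 66.0 in KI B2. All 10 listed genes tested had a log2 fold change below 0 in MemB, with a median of -3.97, and 1 was called, Nkg7 (-6.48, SE 1.46, adjusted p = 0.0376). None was at 0 in every library of a group. These libraries came from cells sorted as MemB, a B cell gate that should leave out T and NK cells. The part of T or NK cell RNA in the lower levels of Cish, Socs1, Pim1 and Pim2 was not tested. In bulk RNA, fewer cells of a type and less RNA per cell cannot be told apart.

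In KI MemB replicate 3 the sum was 53.1 CPM. Most of that sum was Cd4, at 42.5 CPM, while Cd3d was at 0.0983 and Cd3e at 0.491 CPM. Over the 12 libraries, r with the T and NK sum was 0.656 for Cish, 0.608 for Pim2, 0.571 for Pim1, 0.485 for Socs1 and 0.473 for Socs3. It was 0.262 for Socs2, 0.0786 for Pim3 and -0.370 for Bcl6. Control MemB replicate 2 had the highest sum, and without it the log2 fold change in MemB was -1.95 for Pim1, -1.39 for Pim2 and -2.50 for Socs1. Values nearer to 0 were then found for Cish (-4.12 against -5.13), Socs2 (-2.60 against -3.77) and Socs3 (-0.92 against -1.46).

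Markers of other cell classes also differed between the MemB groups. The 3 B2 genes did not go the same way. Ighd was lower in KI MemB, as given above, whereas Fcer2a and Cr2 were higher without overlap. Neither passed edgeR's test (Fcer2a 1.15, SE 0.30, adjusted p = 0.115, and Cr2 0.87, SE 0.34, adjusted p = 0.348). The sum of 7 mast cell genes was 45.4, 1.54 and 255 CPM in control MemB and 0.884 to 1.89 in KI MemB, and reached 77.6 in KI B2 replicate 3. All 4 mast cell genes tested were below 0 in MemB, with a median of -5.96, and Cma1 was called (-6.40, SE 1.41, adjusted p = 0.0376). The sum of 5 B-1 cell genes, most of it Ighm, was 2680.2 to 3313.1 CPM in control MemB and 766 to 1059.6 in KI MemB. It was highest in control B2, at 4307.3 to 4571.8 CPM, so it mainly follows Ighm. Cd5 (-3.85, edgeR adjusted p = 0.348), Spn (-0.45) and Bhlhe41 (-0.41) were lower in KI MemB without overlap but did not pass. Zbtb32 overlapped (0.04). Plasma cell genes summed to 136 to 259 CPM in control MemB and 224 to 339 in KI MemB, and 1 of the 6 was called, Jchain (3.80, SE 0.68, adjusted p = 0.00524). Jchain was at 72.6 to 197 CPM in KI MemB and 5.61 to 18.1 in control MemB, while Mzb1 (-0.67) and Prdm1 (-0.57) were below 0. The sum of 9 macrophage genes was at most 25.0 CPM, with 4 or 5 of the 9 at 0 in every library of a group. The sum of 7 genes of cell division, most of it Mki67 and Top2a, was 492 to 779 CPM in KI MemB and 212 to 345 in control MemB. By edgeR's test 0 of the 7 passed, and 5 had an unadjusted p under 0.05, as did 11.1% of all genes. Ccnb1 (0.21) and Birc5 (1.39) overlapped between genotypes. Sums of immediate early genes overlapped, at 154 to 365 CPM in KI MemB and 179 to 244 in control MemB. The part of these cells or states in the levels of the 8 genes was not tested.

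**Figure D3:**
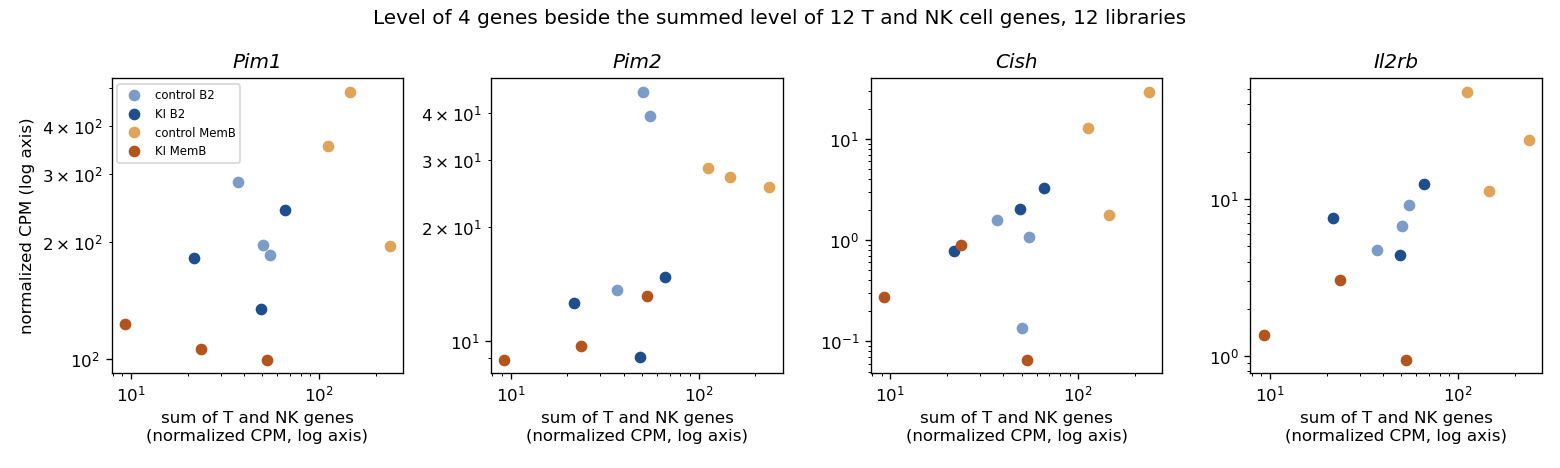
Normalized CPM of Pim1, Pim2, Cish and Il2rb (vertical log axes) beside the summed CPM of 12 T and NK cell genes (horizontal log axes), with 1 point for each of the 12 libraries coloured by group. The 3 control MemB libraries have the highest sums, from 112 to 238 CPM, and the sums of the 3 KI MemB libraries run from 9.27 to 53.1 CPM.

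The other genes of the pathway were followed with a list of 93 receptors, kinases, STATs, inhibitors, ligands and further STAT targets, of which 73 passed the filter on low counts. In MemB, 1 of the 73 was called between KI and control, Il5ra, and 29 were above 0 and 44 below, with a median of -0.27. In B2, 0 of 73 were called by edgeR, 6 had an unadjusted p under 0.05 in equal numbers up and down (5.73% of all genes did), and DESeq2 called 1, Osm. Between MemB and B2, 1 was called, Fcer2a. The difference between the effects gave 0 calls by edgeR and 2 by DESeq2, Il2rb and Il5ra, with 5 at an unadjusted p under 0.05 above 0 and 6 below (8.50% of all genes). DESeq2 called 8 in MemB, Il5ra, Il2ra, Il2rb, Il7r, Il6st, Ifngr2, Cdkn1a and Fcer2a. The shares of all genes called by edgeR were 0.281% in MemB, 0.00670% in B2, 1.03% between MemB and B2 and 0.0670% for the difference. By DESeq2 they were 3.48%, 0.286%, 4.10% and 1.46%, in the same order.

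Of the receptors, 17 of 26 had a log2 fold change below 0 in MemB, with a median of -0.65. Il5ra, the ligand-binding chain of the IL-5 receptor, fell from 114, 81.3 and 89.7 CPM in control MemB to 24.1, 16.8 and 43.3 CPM in KI MemB, without overlap. Its log2 fold change was -1.76 (SE 0.38, edgeR adjusted p = 0.0294). The call was lost without control MemB replicate 1 or 2, or KI MemB replicate 1 or 2, each of which left 0 of the listed genes called. Both control and KI B2 expressed Il5ra, between 70.1 and 110 CPM.

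The chains of the IL-2 and IL-7 receptors, whose signal runs through STAT5, did not pass edgeR's test and did not go the same way. Il2rg, the gamma chain that both receptors share, was at 443, 270 and 335 CPM in control MemB and at 402, 386 and 569 CPM in KI MemB, which overlapped (log2 fold change 0.37, SE 0.22, adjusted p = 0.562). Il2ra was at 5.75, 15.9 and 12.1 CPM in control MemB and at 0.240, 0.679 and 0.721 CPM in KI MemB (log2 fold change -4.35, SE 1.25, adjusted p = 0.193). Il2rb was at 11.3, 23.7 and 48.1 CPM and at 1.37, 3.05 and 0.950 CPM (log2 fold change -3.95, SE 0.99, adjusted p = 0.0871). Libraries of KI and control did not overlap for Il2ra or Il2rb. T and NK cells also express Il2rb and Il7r, and their part in these values was not tested. Il7r was at 8.93, 41.5 and 91.5 CPM in control MemB and at 2.51, 3.18 and 9.50 CPM in KI MemB (log2 fold change -3.22, SE 0.89, adjusted p = 0.161).

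The Janus kinases and STATs were expressed in every library, and none was called by edgeR or DESeq2 in any comparison. Stat6 alone had an unadjusted p under 0.05, between MemB and B2. Jak1, which serves most of these receptors, was between 242 and 415 CPM in all libraries, with a log2 fold change of -0.33 in B2 and 0.00 in MemB. Jak2 (-0.34), Jak3 (0.64, its libraries higher in KI without overlap, adjusted p = 0.801) and Tyk2 (-0.42) did not pass in MemB. Stat2 (0.48), Stat3 (0.07), Stat4 (-0.44) and Stat6 (-0.16) overlapped between genotypes in MemB.

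Stat5a, a STAT that induces Cish and Socs2, was at up to 64.0 CPM in control MemB, in replicate 2, and at 16.9, 3.67 and 24.8 CPM in KI MemB, a range that held the other control MemB libraries. Its groups overlapped, and its log2 fold change was -1.10 (SE 0.70, adjusted p = 0.592) in MemB and -1.28 (SE 0.70, adjusted p = 0.868) in B2. Stat5b had log2 fold changes of 0.24 in B2 and -0.64 in MemB. Stat6, which IL-4 activates, had an adjusted p of 0.0410 between MemB and B2, with a log2 fold change of -0.88 that was under the limit of 1. Its level was between 104 and 199 CPM in B2 and between 64.9 and 112 CPM in MemB.

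The inhibitors outside the 8 genes did not move together. Of 15, which include phosphatases, PIAS proteins and the remaining SOCS genes, 0 were called by edgeR or DESeq2 in any comparison, and in MemB 0 had an unadjusted p under 0.05. Their median log2 fold change in MemB was -0.30, with 10 below 0. Socs6, a SOCS protein linked to receptor tyrosine kinases, had the largest difference between the effects in MemB and B2, 3.35 (SE 1.61, adjusted p = 0.574). It was at 12.7, 23.3 and 3.08 CPM in control B2 and 1.93, 6.85 and 0.335 CPM in KI B2, and at 4.15, 9.36 and 1.87 CPM in control MemB and 7.79, 24.3 and 4.59 CPM in KI MemB, with overlap in both.

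Other STAT targets were as often above as below 0, with 8 above and 9 below in MemB. Cdkn1a, the p21 inhibitor of cell division, was at 0.629, 0.473 and 0.241 CPM in control MemB and at 29.3, 11.6 and 27.9 CPM in KI MemB, without overlap. Its log2 fold change of 5.67 (SE 1.36) did not pass (edgeR adjusted p = 0.0611). In B2, Cdkn1a was at 0.203, 0.304 and 1.20 CPM in control and at 0.386, 8.25 and 13.8 CPM in KI, which overlapped. The log2 fold change there was 3.71 (SE 1.24, edgeR adjusted p = 0.837). Junb was higher on average in KI MemB (1.64, SE 0.77, adjusted p = 0.425). Fcer2a, the low-affinity IgE receptor CD23 that IL-4 induces and that marks B2, fell 3.40-fold from B2 to MemB (log2 fold change -1.77, SE 0.22, adjusted p = 3.97e-06). It was between 248 and 316 CPM in B2 and between 27.1 and 152 CPM in MemB, with no overlap.

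Ligands were scarce in these cells. Of 18, 4 passed the filter and 12 had no count in any library, and 0 of the 4 were called by edgeR. In B2, Osm had the largest negative value (-4.86, SE 1.64, adjusted p = 0.837), from 19.3, 0.405 and 19.6 CPM in control to 0.193, 0.986 and 0.154 CPM in KI. Il15 had the largest positive one (5.88, SE 2.59, adjusted p = 0.837), at no more than 0.0338 CPM in control B2 and at 0.933, 3.67 and 0 CPM in KI B2, which rests on few counts, as does its difference between effects of -8.98 (SE 3.42, adjusted p = 0.447). Ccnd1 (4.25) had the next positive and Il4i1 (-2.73) the next negative value in B2, and their libraries overlapped. Il4i1 also had a difference between the effects of 3.34 (SE 1.40, adjusted p = 0.513), and Il2rb one of -4.20 (adjusted p = 0.357).

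Among genes with an unadjusted p under 0.05 between MemB and B2, Il13ra1 (3.69, SE 1.64, adjusted p = 0.319) and Ebi3 (1.53, SE 0.70, adjusted p = 0.343) had the largest positive values. Il2ra had a value of -1.94 (SE 0.80, adjusted p = 0.269), besides the call for Fcer2a. Libraries of these 3 overlapped between the cell types.

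**Figure D4:**
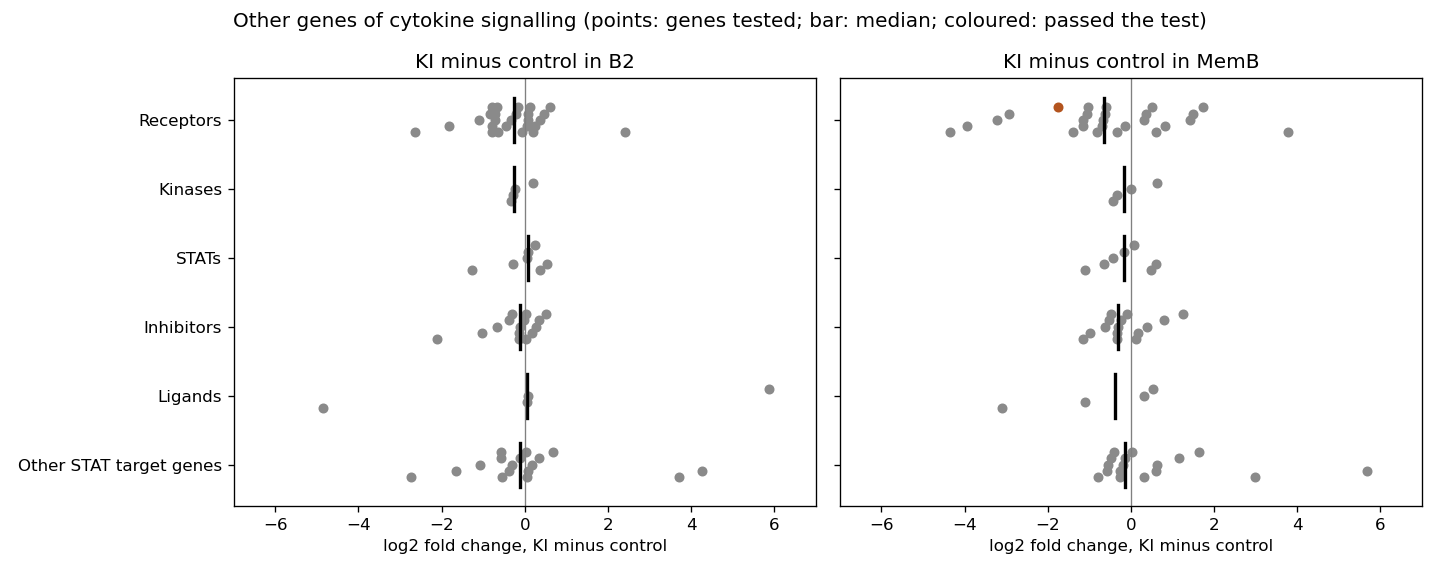
Log2 fold change of KI minus control in B2 and in MemB for the 73 other genes of cytokine signalling tested, grouped by role, with a bar at each median and the gene that passed the test coloured. In MemB the receptors have a median of -0.65 and 1 called gene, Il5ra, while the Janus kinases and STATs lie between -1.10 and 0.64.

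Genes known to be bound by BCL6 or to work with it in B cells were followed with a list of 15, of which 14 were tested. Between MemB and B2, 1 was called, Fas, a death receptor of germinal centre and memory B cells, which rose 9.29-fold in MemB (log2 fold change 3.22, SE 0.74, edgeR adjusted p = 0.0163), where 1.03% of all genes were called. Fas was at 3.01, 0.540 and 0.801 CPM in control B2 and 10.6, 0.394 and 1.60 CPM in KI B2. In MemB it was at 9.01, 32.3 and 24.1 CPM in control and 34.2, 13.1 and 24.9 CPM in KI, and only KI B2 replicate 1 reached the MemB range. Bach2, a repressor of plasma cell fate, was lower in MemB with an adjusted p of 0.0350 but a log2 fold change of -0.81, and Pax5, the B cell identity factor, likewise (-0.52, adjusted p = 0.0494).

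KI MemB replicate 2 had the highest Bcl6 of the MemB libraries, 38.6 CPM. Without it, the log2 fold change of Bcl6 between KI and control MemB was -0.00. That value reached 1.90 with another library left out and 2.29 under an alternative of another kind. Between genotypes, 0 of the 14 were called by edgeR in either cell type, with 3 at an unadjusted p under 0.05 in MemB and 1 in B2, beside 11.1% and 5.73% of all genes. Of those 3 in MemB, Irf8 (0.95, SE 0.31, adjusted p = 0.278) and Bach2 (0.67, SE 0.29, adjusted p = 0.380) were higher in KI without overlap, and Irf4 (-0.56, SE 0.23, adjusted p = 0.366) was lower without overlap.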

How the data were processed

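Libraries came from total RNA of sorted cells, amplified with the Ovation V2 system. According to the submitters' notes, reads were checked with FastQC 0.12.1, trimmed with cutadapt 4.5, aligned to mm39 with STAR 2.7.11a and counted with RSEM 1.3.3; the annotation and strand setting are not given in the sources used here. What the authors deposited is a single table of unnormalized expected counts, whose columns all matched a library by name. Values were rounded, since 32.2% of those above 0 were fractional. The 813 entries of 56941 with no symbol (0.647% of counts) were left out.

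Tests used edgeR 4.0.16 (R 4.3.3) with TMM scaling, filterByExpr (minimum count 10), and quasi-likelihood fits with the robust option (4 group means over all 12 libraries, two-sided), with Benjamini-Hochberg adjustment over 14933 genes. Calls needed an adjusted p under 0.05 together with a log2 fold change beyond 1 in either direction. The SE is the size of the log2 fold change divided by the square root of F. Labels name biological replicates, and p-values measure the spread between these libraries. Depth covers counting error only, because the amplified reads carry no molecular identifiers. The common biological coefficient of variation was 91.3%.

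Members and lists were chosen with earlier results of these data known. Named were the 8 genes, the 5 genes most correlated with Pim1 and the 1 most correlated with each other gene (log2 CPM, prior count 2), listed pathway genes called or among the 2 largest rises and 2 largest falls at an unadjusted p under 0.05 in a comparison, JAK and STAT genes, and markers that bear on a result; some items are not reported here. Il7r, the genes that only DESeq2 called and those of the BCL6 list were named after their values were seen. Gene coordinates are from GENCODE M39 on GRCm39. Protein sequences were not used here. Alternatives were other normalizations and filters, DESeq2 1.42.0, non-robust fits, fits on 6 libraries, blocks and each library left out. The edgeR step was tested on simulated data.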

Additional observations from a re-analysis of the deposited data

How the results depend on the processing

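Directions were mostly kept, and few values had a call to lose. Among values of the 8 genes recomputed under an alternative, 738 changed in neither, 19 turned direction, 9 lost a call and 2 gained one. The lost calls were those of Bcl6 between MemB and B2, 8 of them with a library left out and the rest without robust fitting. Pim1 in MemB stayed between -1.95 and -1.33 with each library left out and between -1.67 and -1.57 otherwise. Directions that turned belonged to values that had not passed the test. With each library left out in turn, Bcl6 ranged from -0.42 to 0.74 between genotypes in B2, from -0.00 to 1.90 in MemB and from -0.42 to 1.48 for the difference between them. Likewise Pim1 ranged from -0.23 to 0.08 between MemB and B2, Pim2 from -0.23 to 0.45 for the difference between effects, Pim3 from -0.51 to 0.19 in MemB, and Socs2 from -2.74 to 4.76 in B2 and from -2.03 to 1.88 between MemB and B2. Leaving replicate 3 out of all groups gave 0.16 for Pim1 and 0.11 for Socs3 in B2.

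Deviations of same-numbered libraries were hardly correlated (12 pairs, correlations from -0.0142 to 0.0334, 0 above 0.1), so the numbers were not used as pairs in the main fit. Replicate 3 nevertheless stood apart in Xist in every group, and its Hspa1a was the lowest of each group, at 0.540 to 1.36 CPM. With a replicate block, Socs2 was 0.16 between MemB and B2, 1 of the 8 genes was called there and 0 elsewhere, and calls over all genes went from 10 to 6 for the difference between effects. With libraries of 1 genotype and number taken as those of 1 mouse, which the labels do not state, Socs2 was 0.02 between MemB and B2 and Pim2 was -0.07 for the difference between effects. DESeq2 called 1 of the 7 genes other than Pim1, Cish, in MemB and 1 for the difference between effects. Without robust fitting, 0 of the 8 were called between MemB and B2 (Bcl6, -1.82, adjusted p = 0.108), and leaving out each library gave 0 to 1.

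For the 73 pathway genes, calls in MemB were 4 when only genes with no counts were filtered out, 8 with DESeq2, 0 without robust fitting, 0 on the 6 MemB libraries and 0 to 2 with each library left out. Between MemB and B2 they were 2 with upper-quartile scaling, 2 with DESeq2 and 1 to 2 with each library left out. DESeq2 gave 1 in B2 and 2 for the difference between effects, for which leaving out each library gave 0 to 1. Over all genes, DESeq2 called 41 in B2, 471 in MemB, 576 between MemB and B2 and 205 for the difference, against 1, 42, 154 and 10 by edgeR. The 42 in MemB became 15 without KI MemB replicate 1, 18 without control MemB replicate 2, 25 without control MemB replicate 1 or KI MemB replicate 3, and 12 on the 6 MemB libraries. The 10 became 5 without control B2 replicate 2 and 6 without control B2 replicate 3, and the 1 in B2 became 2 without KI B2 replicate 3. When only genes with no counts were filtered out, the 10 became 41 and the 1 became 8. The 10 also became 3 without immunoglobulin genes, 4 without robust fitting and 6 with upper-quartile scaling. The cause of these differences was not tested. Keeping entries with no symbol, an alternative chosen after seeing the data, changed no call among the 8 genes or the list. Counts of Socs2 were as low as 1 in a library and those of Cish as low as 2, and such values carry a large counting error.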
